A study of Homo sapiens with 8 samples.

Results

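The genes described here are 42 interferon-stimulated genes and sensors of foreign nucleic acid, chosen by name for their known roles. Earlier results of these data were known when they were chosen. Of the 42 genes, 41 had a named probe set, out of 22458 named genes on the arrays, and each was measured by 1 probe set. The expression of STAT2 was not analysed here. They were followed in Caco-2 clone TC7, an epithelial line from a human colon tumour. The cells were transfected overnight with 200 ng of a CRTC1 expression plasmid or of the empty vector pBS, with 4 arrays in each group. CRTC1 is a coactivator of the transcription factor CREB. All arrays come from cells that received plasmid DNA by transfection. Untransfected cells were not analysed here, so a response to transfected DNA shared by both groups is not part of the difference reported. The labels name no separate cultures, so the p-values measure the spread between these arrays, which may be technical.

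Cells detect foreign RNA and DNA with sensor proteins. RIG-I (gene RIGI) and MDA5 (gene IFIH1) bind RNA in the cytosol and signal through the adaptor MAVS, TLR3 binds double-stranded RNA in endosomes, and cGAS (gene CGAS) binds cytosolic DNA and signals through STING (gene STING1). These routes activate the transcription factors IRF3 and IRF7, which switch on the genes of interferon beta (IFNB1) and interferon lambda (IFNL1). Secreted interferon then acts through its receptors on a complex that includes STAT2 and IRF9 and binds the interferon-stimulated response element in the promoters of many antiviral genes. In gut epithelium interferon lambda is a main mediator of this defence.

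The CRTC1 probe set lay at 11.87 ± 0.457 (SD, n = 4) on the log2 scale in the CRTC1 group and at 5.90 ± 0.407 (SD, n = 4) with empty vector, which bears out the labels. Markers of colon epithelium were present, with 10 of 11 above the median of all genes and CDX1 below it at a mean log2 expression of 3.97. Of the leukocyte markers 8 of 9 lay below that median of 4.16. The mean of the 9 leukocyte markers per array ran from 3.195 to 3.213 with CRTC1 and from 3.160 to 3.299 with empty vector. The mean of 6 plasmacytoid dendritic cell markers ran from 3.45 to 3.70 with CRTC1 and from 3.43 to 3.54 with empty vector. The means of the fibroblast markers (3.31 to 3.41 against 3.29 to 3.34) and of the endothelial markers (3.04 to 3.29 against 3.10 to 3.21) overlapped between the groups too. Above that median lay 2 of 6 plasmacytoid, 2 of 8 fibroblast and 1 of 7 endothelial markers. In limma's moderated test 1 of 8 fibroblast, 1 of 7 endothelial and 1 of 9 leukocyte markers had an unadjusted p under 0.05. These are 12.5%, 14.3% and 11.1% of the lists, beside 5.94% of all genes. Of the colon epithelium and plasmacytoid markers 0% were called. The called markers were PDGFRB (log2 change 0.42), CLDN5 (0.33) and FCER1G (-0.31), with adjusted p = 0.837 for each. The groups did not overlap in PDGFRB, as in 3.74% of all genes. In such bulk RNA, fewer cells of a type and less RNA per cell cannot be told apart.

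The RefSeq promoter table (GRCh38.p14, 250 bases before to 50 after each gene's start) held 32 of the 42 listed genes, 31 of them measured, in 39 entries. Promoters of 5 members are shown because 4 of them, BST2, RIGI, IRF1 and IFITM1, had the smallest p-values and the fifth, IFIT1, varied most between arrays. Each stretch covers 150 bases before the start and the first 10 transcribed bases, on the gene's strand. They lie at chr19:17405621-17405780 (minus strand) for BST2, chr9:32526187-32526346 (minus) for RIGI, chr5:132490764-132490923 (minus) for IRF1, chr11:313890-314049 (plus) for IFITM1 and chr10:89392473-89392632 (plus) for IFIT1. Capitals mark matches on either strand to the core of the interferon-stimulated response element (GAAA and GAAA with any 2 bases between them) and to the gamma-activated sequence TTCNNNGAA, which may overlap each other.
BST2: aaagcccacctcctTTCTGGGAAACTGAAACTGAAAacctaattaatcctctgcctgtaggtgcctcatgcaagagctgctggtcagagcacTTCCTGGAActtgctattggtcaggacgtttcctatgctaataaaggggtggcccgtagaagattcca
RIGI: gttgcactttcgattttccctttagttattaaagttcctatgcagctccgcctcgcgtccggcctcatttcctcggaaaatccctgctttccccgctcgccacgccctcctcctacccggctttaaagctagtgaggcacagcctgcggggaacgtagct
IRF1: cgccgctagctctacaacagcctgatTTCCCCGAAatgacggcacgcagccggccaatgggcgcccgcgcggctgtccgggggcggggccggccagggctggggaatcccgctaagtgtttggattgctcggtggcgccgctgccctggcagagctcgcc
IFITM1: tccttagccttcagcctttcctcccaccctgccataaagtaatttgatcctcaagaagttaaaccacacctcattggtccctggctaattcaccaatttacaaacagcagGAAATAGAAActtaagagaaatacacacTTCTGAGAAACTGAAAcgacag
IFIT1: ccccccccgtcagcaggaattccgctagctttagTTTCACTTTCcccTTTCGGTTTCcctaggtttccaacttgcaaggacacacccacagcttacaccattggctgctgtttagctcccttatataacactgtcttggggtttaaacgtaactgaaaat
The BST2 stretch holds 2 overlapping copies of the response element core and 2 of TTCNNNGAA, and IFITM1 has 2 and 1 of these. IFIT1 has 2 copies of the response element core, both as its reverse complement, IRF1 has 1 copy of TTCNNNGAA, and RIGI has none of these letters in this window. Over the full windows, the response element core was found in 25 of 39 member entries (64.1%) and in 3.57% of all 35116 promoter entries. TTCNNNGAA was found in 30.8% of member entries and in 7.66% of all. The full cAMP response element bound by CREB, TGACGTCA, was in 0 of 39 member entries and in 1.85% of all. Its half-site TGACG, which is contained in the full site, was in 5 member entries (12.8%) and in 24.6% of all, the members being IFIT1, IRF1, ISG15, ISG20 and XAF1. The members were chosen for interferon induction, so these shares describe the list and are not a test.

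In bulk RNA the group means of the measured members differed by at most 1.38-fold (IRF1) between samples transfected with CRTC1 and the controls. In limma's moderated test over all genes, 0 of 41 members passed an adjusted p of 0.05 (lowest adjusted p = 0.837), where 0.00445% of all genes, CRTC1 itself, did. At an unadjusted p under 0.05 there were 4 of 41 members (9.76%), against a background of 5.94% of all genes. All 4 were higher with CRTC1, a direction in which 3.2% of all genes were called, and 0 were lower, against 2.73%. The 4 were the RNA sensor gene RIGI, the transcription factor gene IRF1 and the antiviral membrane protein genes IFITM1 and BST2. None of the 41 also reached a 1.5-fold difference, a combination met by 0.361% of all genes. The groups overlapped in all 41 members, where 3.74% of all genes did not overlap. Of the members 21 were higher and 20 lower with CRTC1 (51.2% higher, against 48.6% of all genes). Their median log2 change was 0.014, beside -0.0050 for all genes, and the changes ran from -0.23 for ISG20 to 0.46 for IRF1.

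The intervals limit how large a difference, averaged over all cells of a sample, could have been missed in single genes. The share of cells that took up the plasmid was not used here, and a change confined to those cells would be diluted. The 95% interval of the change lay inside a 2-fold difference in either direction for 40 of 41 members, IFIT1 being the exception, and inside 1.5-fold for 34. Over all 22458 genes the intervals of 22110 lay inside 2-fold and of 18912 inside 1.5-fold, which are similar shares. For ISG15, which encodes a ubiquitin-like protein and is among the classical interferon targets, the fold was 1.01 with an interval of 0.856 to 1.19. For OAS1 it was 0.923, with an interval of 0.804 to 1.06. The values carry no detection calls. Of the members, 25 had a mean below the median of all genes and 17 below the 25th percentile, so part of the list may lie near background, where a change would be understated.

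**Figure D1:**
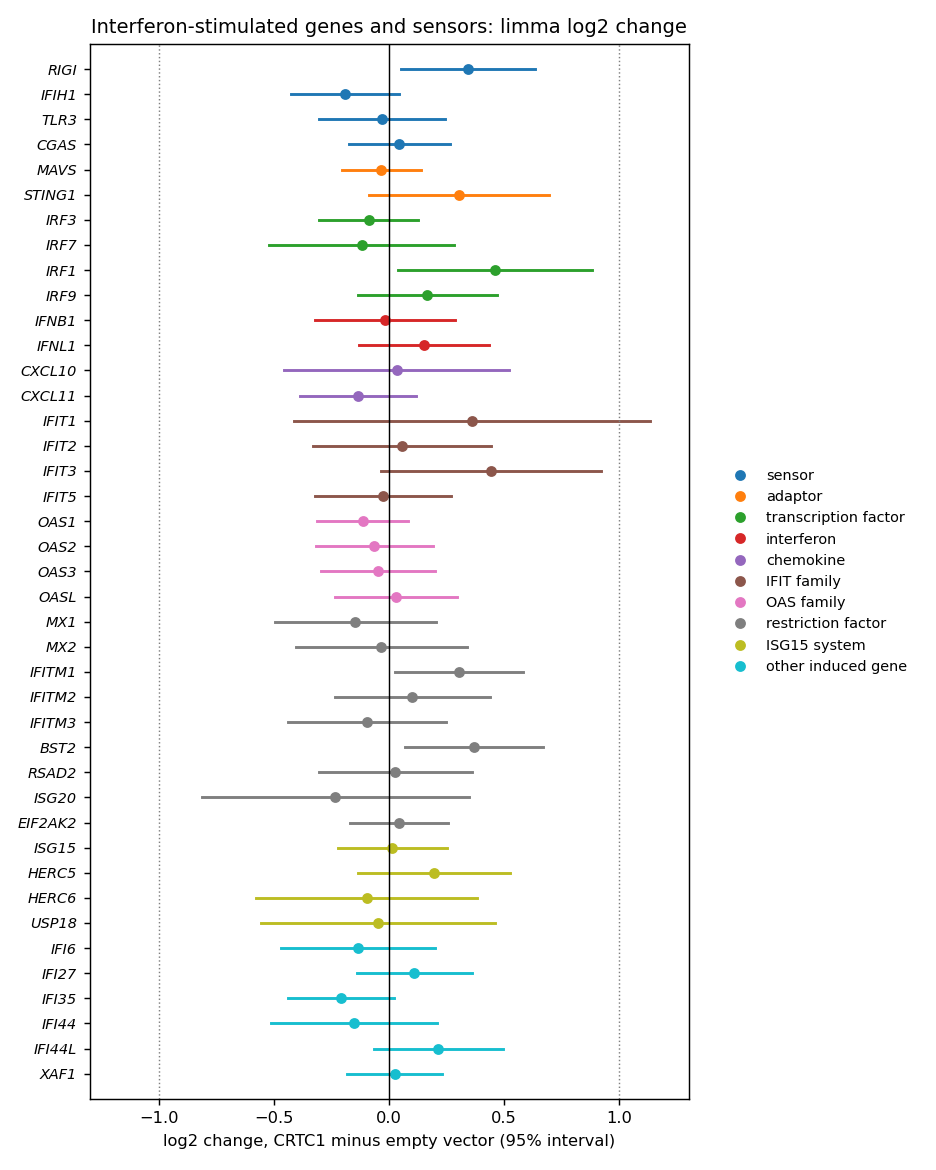
Log2 change (x axis, CRTC1 minus empty vector) of the 41 measured members (y axis), with the 95% interval from limma as a line, coloured by role, with dotted lines at a 2-fold difference. The points lie between -0.23 (ISG20) and 0.46 (IRF1), and only the interval of IFIT1 crosses a dotted line.

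Among the sensors, RIGI (Entrez Gene 23586) was the one with the largest difference. It read 5.80, 6.11, 5.69 and 5.46 on CRTC1 arrays 1 to 4 and 5.44, 5.43, 5.46 and 5.35 on empty vector arrays 1 to 4. Of the CRTC1 arrays 3 lay above all controls, and the fourth fell just short of the highest control, at 5.461 against 5.465. The log2 change was 0.34 (standard error 0.13, adjusted p = 0.837), a fold of 1.27 with a 95% interval of 1.04 to 1.55. The exact two-sided permutation p was 0.0571, where 4 against 4 arrays allow at best 0.0286.

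IFIH1, which encodes the RNA sensor MDA5, differed in the opposite sense. It read 3.08, 3.24, 3.17 and 3.26 with CRTC1 and 3.37, 3.30, 3.64 and 3.21 with empty vector. The groups overlapped through empty vector replicate 4, the lowest control. Its log2 change was -0.19 (adjusted p = 0.855), and -0.10 without empty vector replicate 3, the highest control. The changes of CGAS, the DNA sensor gene, and of TLR3 were 0.045 and -0.029. The intervals on the log2 scale were -0.18 to 0.27 for CGAS and -0.30 to 0.24 for TLR3.

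Of the adaptors, MAVS had the smallest within-group spread of all members, a pooled SD of 0.0664, and a log2 change of -0.034 with an interval of -0.21 to 0.14. STING1, the adaptor below cGAS, read 3.81, 4.16, 4.01 and 4.36 with CRTC1 and 4.07, 3.39, 3.64 and 4.03 with empty vector. CRTC1 replicates 2 and 4 lay above all controls and the other two inside their range. Its log2 change was 0.30 (adjusted p = 0.861), and 0.17 without empty vector replicate 2.

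IRF1, a transcription factor induced by interferon gamma and inflammatory signals, had the largest log2 change of the members. It read 4.88, 4.57, 4.97 and 4.91 on the CRTC1 arrays and 4.83, 4.571, 4.03 and 4.05 on the empty vector arrays. The controls fell into a higher pair, replicates 1 and 2, and a lower pair, replicates 3 and 4, while CRTC1 replicate 2, at 4.566, lay just under the empty vector array of that number. The log2 change was 0.46 (standard error 0.19, adjusted p = 0.837), a fold of 1.38 with an interval of 1.03 to 1.84, and the exact permutation p was 0.0857. IRF3, which the sensors activate by phosphorylation, had a log2 change of -0.088, and its interferon-induced relative IRF7 had -0.12. IRF9, the DNA-binding partner of STAT2, had 0.17, with CRTC1 replicate 1 highest at 5.19 and the other CRTC1 arrays between 4.70 and 4.86. Its change was 0.065 without CRTC1 replicate 1 and 0.10 when empty vector replicate 2 was left out.

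The 2 interferon genes among the members, IFNB1 and IFNL1, overlapped between the groups, with differences smaller than the spread within the CRTC1 group. IFNB1 had a mean log2 expression of 2.46 ± 0.285 (SD, n = 4) with CRTC1 and 2.48 ± 0.0651 (SD, n = 4) in the controls. The means of IFNL1 were 2.83 ± 0.218 and 2.68 ± 0.150 (SD, n = 4). The log2 changes were -0.019 (interval -0.32 to 0.29) and 0.15 (interval -0.13 to 0.43). CXCL10 and CXCL11, interferon-induced chemokines that attract T cells, had changes of 0.033 and -0.14. CXCL10 spread widely in both groups, from 2.18 to 2.98 with CRTC1 and from 1.96 to 2.80 with empty vector.

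The IFIT genes, whose products bind foreign RNA and block its translation, lie close together on chromosome 10 and are among the most strongly interferon-induced genes. IFIT3 read 3.33, 2.95, 2.58 and 2.45 with CRTC1 and 2.66, 2.11, 2.13 and 2.63 with empty vector. CRTC1 replicates 1 and 2 lay above all controls and replicates 3 and 4 within the control range. Its log2 change was 0.44 (standard error 0.21, adjusted p = 0.838), with an exact permutation p of 0.171, and was 0.28 without CRTC1 replicate 1.

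IFIT1 read 2.09, 3.46, 2.13 and 1.68 on the CRTC1 arrays and 1.79, 1.67, 2.06 and 2.39 on the empty vector arrays. The high mean of the CRTC1 group came from replicate 2, the other 3 arrays lying within the control range. The log2 change of 0.36 (standard error 0.34, adjusted p = 0.888) became -0.013 without CRTC1 replicate 2. IFIT2 and IFIT5 had changes of 0.056 and -0.025. The means of all 4 IFIT genes lay below the 25th percentile of all genes.

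The oligoadenylate synthetases make a messenger that activates RNase L against viral RNA. The log2 changes were -0.12 for OAS1, -0.064 for OAS2, -0.048 for OAS3 and 0.031 for OASL, a family member without synthetase activity. All 4 intervals lay inside a 1.5-fold difference, as did those of 18912 of all 22458 genes. OAS1 read 6.66, 6.80, 6.81 and 6.96 with CRTC1 and 6.84, 6.87, 7.01 and 6.97 with empty vector, so that 3 CRTC1 arrays lay below all controls and replicate 4 inside the control range. Without CRTC1 replicate 1, the lowest array, its change was -0.066.

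Among proteins that block viral entry, replication or release, BST2 (tetherin, which holds budding virus at the cell surface) had the smallest p-value of the members. BST2 (Entrez Gene 684) read 2.65, 2.00, 2.34 and 2.25 on the CRTC1 arrays and 1.96, 1.80, 1.98 and 2.04 on the empty vector arrays. CRTC1 replicates 1, 3 and 4 lay above all controls, and replicate 2 lay below the highest control. The log2 change was 0.37 (standard error 0.13, adjusted p = 0.837), a fold of 1.29 with an interval of 1.05 to 1.59, and the exact permutation p was 0.0571. Its mean of 2.13 over the 8 arrays lay above those of 9.52% of all genes, in the dim range.

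IFITM1, a membrane protein that hinders virus entry, read 3.38, 3.75, 3.89 and 3.80 with CRTC1 and 3.41, 3.56, 3.25 and 3.38 with empty vector. CRTC1 replicates 2, 3 and 4 lay above all controls and replicate 1 inside their range. The log2 change was 0.31 (standard error 0.12, adjusted p = 0.837), and the exact permutation p was 0.114. Its close relatives IFITM2 and IFITM3 had changes of 0.10 and -0.096. The 3 genes are similar in sequence and the positions of the probes were not used here, so the values of the single genes are uncertain.

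The remaining antiviral effectors showed no shared direction. ISG20, a nuclease gene, read 3.75, 5.12, 4.18 and 4.43 with CRTC1 and 4.59, 4.60, 4.89 and 4.34 with empty vector. The CRTC1 arrays held both the highest value, on replicate 2, and the lowest, on replicate 1. Its log2 change of -0.23 (adjusted p = 0.909) moved to -0.48 when CRTC1 replicate 2 was left out and to -0.025 when CRTC1 replicate 1 was. The dynamin-like GTPase genes MX1 and MX2 had changes of -0.15 and -0.033, RSAD2 (viperin) 0.026 and EIF2AK2, which encodes the RNA-activated kinase PKR, 0.043.

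In the ISG15 system the modifier gene ISG15 lay at 6.88 ± 0.186 (SD, n = 4) with CRTC1 and 6.87 ± 0.0869 (SD, n = 4) in the controls, a log2 change of 0.014. HERC5, the human ligase that attaches ISG15, read 2.64, 3.23, 2.71 and 2.51 with CRTC1 and 2.59, 2.50, 2.56 and 2.67 with empty vector. CRTC1 replicate 2 stood above the other 7 arrays, and the log2 change of 0.19 was 0.040 without it. The related HERC6 had -0.098 and USP18, which removes ISG15 and dampens receptor signalling, -0.049.

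Of the remaining induced genes, IFI35 had the largest difference on the lower side among the 6. It read 6.04, 5.91, 6.15 and 6.18 with CRTC1 and 6.24, 6.48, 6.28 and 6.11 with empty vector, overlapping through empty vector replicate 4. The log2 change was -0.21 (adjusted p = 0.838). IFI44L read 1.87, 1.86, 2.27 and 1.76 with CRTC1 and 1.64, 1.65, 1.93 and 1.69 with empty vector. CRTC1 replicate 3 alone lay above all controls, and the log2 change of 0.21 (adjusted p = 0.861) was 0.10 without that array. The changes of IFI6, IFI27, IFI44 and XAF1 were -0.13, 0.11, -0.15 and 0.025.

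**Figure D2:**
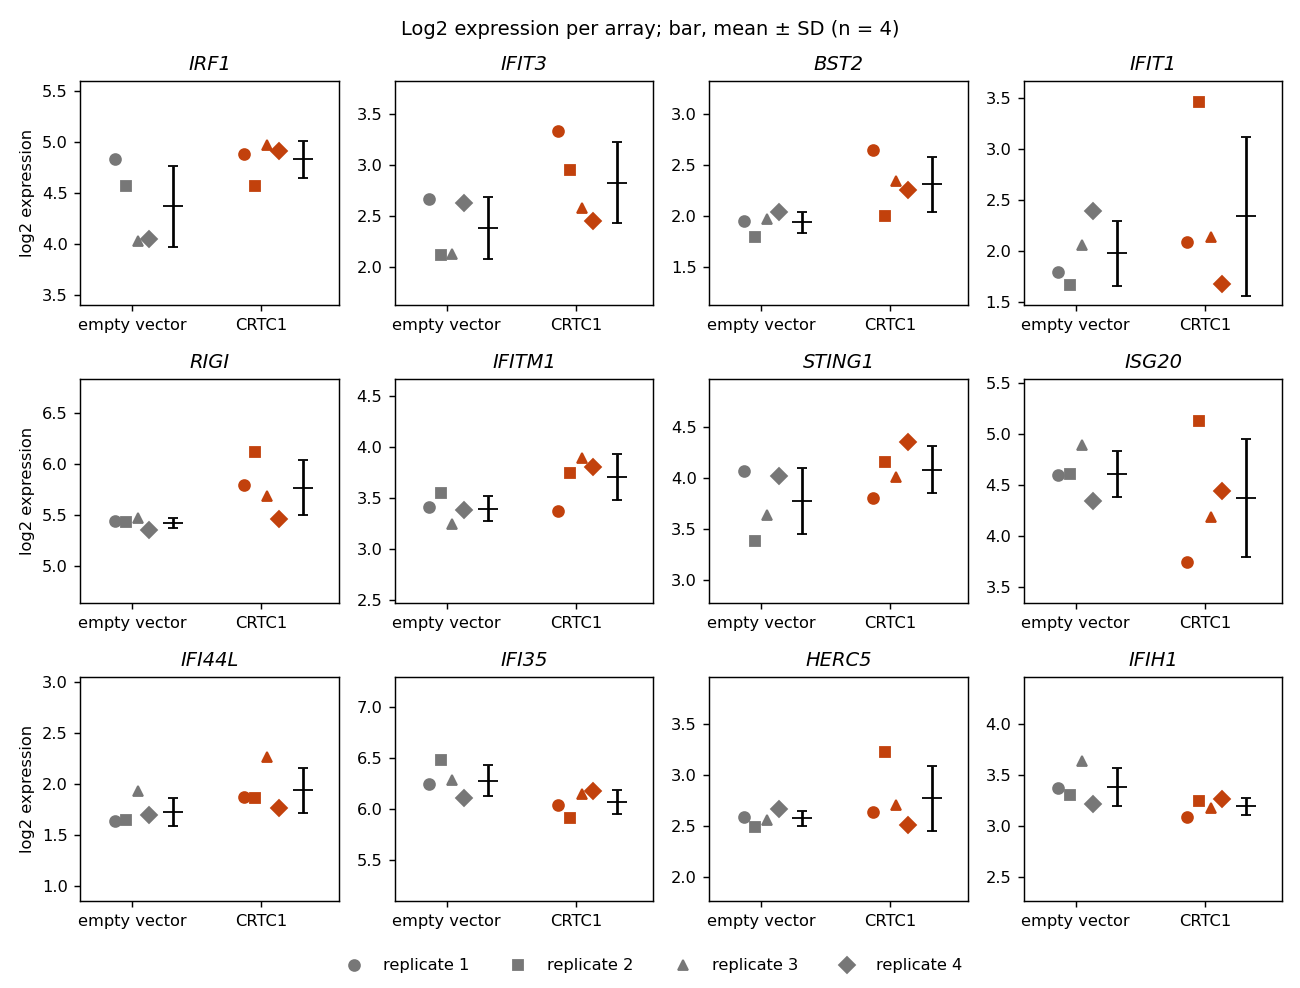
Log2 expression (y axis) of the 12 members with the largest absolute log2 change, per array, with empty vector in grey and CRTC1 in orange, marker shape for the replicate number and a bar for the mean ± SD of 4 arrays. All panels span a y axis of equal length, the groups overlap in every panel, and CRTC1 replicate 2 (square) stands at 3.46 for IFIT1 against at most 2.39 on any other array.

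Single arrays carried part of these differences. CRTC1 replicate 2 was the highest of all 8 arrays in 10 of 41 members (24.4%), where it was highest in 11.7% of all genes. The 10 were RIGI, CGAS, IFNL1, CXCL10, IFIT1, IFIT2, IFIT5, OASL, ISG20 and HERC5. CRTC1 replicate 1 was highest in 7 members, among them BST2, IFIT3 and IRF9, and in 14.6% of all genes. The other 6 arrays were highest in 2 to 5 members each. The median deviation of the members from their mean over 8 arrays was 0.029 on CRTC1 replicate 2 and -0.050 on CRTC1 replicate 4, the highest and lowest of the 8 arrays. On CRTC1 replicate 1 it was 0.027, so by this measure replicate 2 hardly differed from replicate 1. CRTC1 itself lay at 11.78 on replicate 2, between the 12.52 of replicate 1 and the 11.46 of replicate 4. Without CRTC1 replicate 2 the log2 change of RIGI was 0.23, that of BST2 0.47 and that of IFIT3 0.40. Why CRTC1 replicate 2 was the highest array in so many members was not tested.

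The spread between arrays differed among the members. The largest pooled within-group SD was that of IFIT1, at 0.593, higher than in 99.2% of all genes. It was followed by ISG20 at 0.438, USP18 at 0.379, CXCL10 at 0.365 and HERC6 at 0.357. The median over the members was 0.203, against 0.177 for all genes. USP18 ranged from 3.99 to 4.72 with CRTC1 and from 3.82 to 4.72 with empty vector. HERC6 lay at 3.12 on empty vector replicate 4 and between 3.97 and 4.17 on the other controls.

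**Figure D3:**
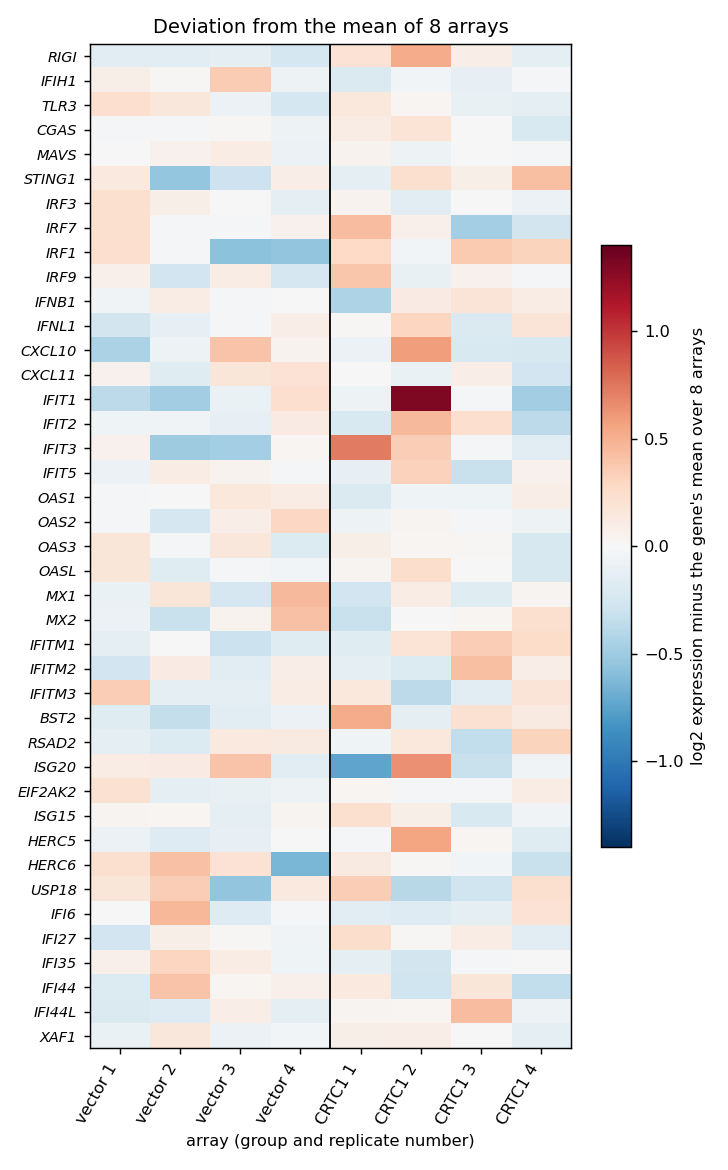
Log2 expression of each of the 41 members (rows) on each array (columns) minus its mean over the 8 arrays, red for higher and blue for lower, with a line between the 4 empty vector and the 4 CRTC1 arrays. The groups overlap in every row, and the darkest cell is IFIT1 on CRTC1 replicate 2, where it read 3.46.

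Other genes of the pathway were read against the same background, in which 5.94% of all genes were called at an unadjusted p under 0.05, 3.74% did not overlap between the groups and 48.6% were higher with CRTC1. Of 15 measured genes for interferon receptors, JAK kinases, STAT factors and their inhibitors, 0 were called at an unadjusted p under 0.05. All 15 intervals lay inside 1.5-fold, as did those of 18912 of all 22458 genes. The 3 with the smallest p were the kinase gene JAK2 (log2 change -0.12), the STAT inhibitor gene PIAS1 (-0.12) and SOCS3 (0.097), a feedback inhibitor of cytokine receptors. Of 28 further genes of nucleic acid sensing, 9 were higher (32.1%) and 19 lower. Their median change was -0.043 on the log2 scale, and 0 were called. AZI2, an adaptor of the kinase TBK1, had a log2 change of 0.19, the DNA sensor gene AIM2 -0.27 and NLRC5, an activator of MHC class I genes, -0.20. In 1 of the 28 (3.57%), SAMHD1, a nucleotide hydrolase gene that restricts viruses, the groups did not overlap. SAMHD1 read 7.83, 7.83, 7.84 and 7.77 with CRTC1 and 7.88, 7.88, 7.86 and 7.91 with empty vector, a log2 change of -0.064 (adjusted p = 0.907). It was named after its values were seen.

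Of 48 measured further interferon-stimulated genes, 17 were higher (35.4%) and 31 lower, with a median of -0.051, and 1 (2.08%) was called at an unadjusted p under 0.05. That gene was CMPK2, a mitochondrial nucleotide kinase gene that neighbours RSAD2, with a log2 change of -0.29 (adjusted p = 0.837). The next were TRIM5 (0.27), a restriction factor against retroviruses, and TAP2 (-0.16), a peptide transporter for antigen presentation.

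Of 17 further interferon genes 5 were higher (29.4%) and 12 lower, with 1 called in each direction, where 3.2% of all genes were called higher and 2.73% lower. IFNA17 had a log2 change of 0.35 and IFNL2 of -0.21 (adjusted p = 0.837 for both). The groups did not overlap in either gene, 11.8% of these 17 against 3.74% of all genes. Full separation of 4 against 4 arrays fixes the exact permutation p at 0.0286, the smallest possible. That p therefore adds nothing to the lack of overlap. Interferon alpha genes are near-identical to each other, as are IFNL2 and IFNL3, so that the values of the single genes are uncertain. IFNA17 lay at 1.43 with empty vector, in the dim range, and 0 of the 108 further genes of these lists passed the adjusted threshold.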

How the data were processed

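Total RNA of Caco-2 clone TC7 was labelled for 8 Affymetrix arrays with a whole-transcript protocol, per the labels' protocols. The deposited values are log2 expression, 1 per probe set and array, from 0.832 to 12.87, with array medians from 4.11 to 4.15. The log2 scale was read from the values. The submitters' processing notes name Partek, with no version or role. No label or header states the method of background correction, summarisation or normalization, which is therefore unknown here. The 8 columns have nearly equal medians, and if they were scaled to one another, a change common to nearly all transcripts is hidden. Depth for arrays means only that the number of arrays, 4 per group, limits precision.

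The platform annotation gave 1 symbol to 22458 of 23786 probe sets, several to 0 and none to 1328. Symbols were updated through Entrez identifiers with RefSeq (GRCh38.p14), which matched all 22458. The comparison was fitted with limma 3.58.1 (R 4.3.3), 1 coefficient per group and no block, with Benjamini-Hochberg adjustment across the 22458 genes (threshold 0.05). Exact two-sided permutation was used for single genes. The members, the lists of related genes and the rule for named genes were chosen with earlier results of these data known. The rule gives array values for members at an unadjusted p under 0.05 or among the 10 largest changes, the 5 largest spreads, and, per related list, genes at an unadjusted p under 0.05 or else the 3 of smallest p. OAS1, IFIH1 and HERC5 were given per array after their values were seen. Promoter motifs were searched in Python 3.11.15.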

Additional observations from a re-analysis of the deposited data

Results flagged for a closer look

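Dixon's test was applied to the 4 arrays of each group for each named gene, 110 tests in all, and marked 5 single arrays as far from their group, where chance gives about 6. The interferon beta gene IFNB1 had a low value of 2.03 on CRTC1 replicate 1, while the other CRTC1 arrays read 2.57 to 2.65. For ISG15 the low value was 6.74, on empty vector replicate 3, with 6.90 to 6.92 on the remaining controls. IFI6 had a high value of 3.63 on CRTC1 replicate 4, where the rest of the group read 3.25 to 3.30. IFNA17 had a high value of 2.26 on CRTC1 replicate 3, where the rest read 1.59 to 1.66. SAMHD1 had a low value of 7.77 on CRTC1 replicate 4, where the rest read 7.83 to 7.84.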

How the results depend on the processing

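No member passed the adjusted threshold in any of the 15 alternatives, where the lowest adjusted p of a member was 0.613. Of 590 member values 549 kept both direction and side of the threshold and 41, in 19 members, had the other direction. With array weights IFNB1 was at 0.018 and ISG15 at -0.0054. With 1 array left out the log2 changes that crossed 0 were those of IFNB1 (-0.082 to 0.12), IFIT5 (-0.14 to 0.075), MX2 (-0.14 to 0.10), ISG15 (-0.056 to 0.089), CGAS (-0.013 to 0.12), CXCL10 (-0.16 to 0.17), IFIT1 (-0.013 to 0.58), IFIT2 (-0.087 to 0.19), OASL (-0.047 to 0.11), IFITM3 (-0.17 to 0.0088), RSAD2 (-0.073 to 0.14), USP18 (-0.24 to 0.071), XAF1 (-0.0026 to 0.081), TLR3 (-0.11 to 0.043), IRF7 (-0.28 to 0.022), IFITM2 (-0.024 to 0.18), OAS3 (-0.12 to 0.019), HERC6 (-0.33 to 0.021) and OAS2 (-0.15 to 0.021). The causes were not tested. With 1 array left out, members at an unadjusted p under 0.05 numbered 2 to 4, members without overlap 0 to 4, and the median change ran from -0.018 to 0.026. It was -0.018 without CRTC1 replicate 2. Without CRTC1 replicates 1, 2 and 3 in turn, 1344, 1175 and 1181 of 22458 genes were at that unadjusted p. The members at that p in these fits were 2, 3 and 2 of 41. For the remaining fits with 1 array left out, the count over all genes is not given here. Their member counts therefore have no share to be read against. Without overlap were 4 members (IFIH1, BST2, HERC6 and IFI35) without empty_vector replicate 4, where 3 arrays against 4 make it easier to reach, and 1 member, RIGI, with quantile normalization. In the alternatives overlap was counted for the members only, so these counts have no share of all genes to be read against. With the dimmer genes left out, so that fewer were tested, 829 of 11229 genes and 2 of 16 members were at an unadjusted p under 0.05. The median of these 16 members was -0.041. A variance trend with robust moderation took the genes past the threshold from 1 to 2, neither a member. CRTC1 passed throughout (log2 change 5.75 to 6.10). BST2 stayed at an unadjusted p under 0.05 in 7 of the 8 fits with 1 array left out, RIGI in 5, IRF1 in 3 and IFITM1 in 2. These 4 genes were picked for small p in the same arrays that the fits reuse, so their counts are not independent support. With the replicate number as a block 4 members were at an unadjusted p under 0.05, BST2, RIGI, IFIT3 and IFI44L, and 1677 genes, against 1333 without it. Deviations of same-numbered arrays correlated at 0.251, 0.0385, 0.0639 and 0.117. Every array correlated best with its own number, a hint of pairing from the data and not from the design. The labels state no pairing, so the numbers were not taken as pairs in the main fit. Overlap counts do not involve the variance model and were not recomputed for the block, weights, trend or all probe sets. Dim signal limits members such as BST2 and the IFIT genes.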
